A study of Rattus norvegicus with 23 samples.

Results

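The genes described here are those of red blood cells and of haem synthesis, measured in peripheral blood mononuclear cells (PBMC) of weanling rats. A list of 39 genes was looked up by gene name on the array, and 25 of them were found among 35658 distinct gene names, each taken through its brightest probe. All 25 passed the filter on dim probes, and 23 of them were well above background on all 23 arrays. The other two were Ank1, above background on 21 arrays, and Ermap, above background on 9 arrays. A further 12 of the 39 were reached through a probe filed under an older name and are described separately. For Hbz and Trim10 the search by name and accession found no probe, so they have no values here.

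Each array compared RNA of 1 Wistar pup aged 21 days, labelled with Cy5, with an equimolar pool of all samples, labelled with Cy3, and values are log2 ratios of pup to pool. Blood mononuclear cells were separated from trunk blood on a density gradient. The groups were 5 males and 6 females suckled by dams on a diet cut by 20% in calories throughout lactation (CR), and 6 males and 6 females of dams fed ad libitum (control). The labels name 5 CR dams and 11 control dams and do not tie a pup to its dam. The 11 CR pups therefore shared mothers, as did some control pups, and p-values over pups may be too small.

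Red cells are made from erythroid precursors, which fill with haemoglobin, remodel their membrane and lose their nucleus to become reticulocytes, the young red cells that still carry RNA. Haem is built by a chain of enzymes that starts with the erythroid aminolevulinate synthase Alas2 in the mitochondrion and ends with ferrochelatase, Fech, which inserts the iron. Transcription factors such as Gata1, Klf1 and Tal1 switch on the globin, haem and membrane genes in these precursors, while the mononuclear cells that a density gradient is meant to collect, lymphocytes and monocytes, do not make haemoglobin as their main product.

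Between 20603 and 24076 probes per array were well above background, at median Cy5 intensities of 55.6 to 65.8 over a local background of 27 to 30. Of the marker genes of the labelled cell types, 9 of 10 measured T cell markers, 7 of 7 B cell markers, 6 of 8 natural killer markers and 7 of 9 monocyte markers were above background on all 23 arrays. So were 5 of 6 measured neutrophil markers and 7 of 8 platelet markers, so detection does not set the labelled cell types apart from these. The number of arrays limits the precision of every comparison. In these bulk samples fewer cells of a type and less RNA per cell cannot be told apart.

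The red cell genes varied far more between pups than most genes did. Within groups the median standard deviation was 0.54 log2 units over the 25 genes, against 0.14 over all 20166 features tested. Hbb, the beta-globin chain of haemoglobin, ranged over 46.8-fold between its lowest and its highest array, Add2 over 44.2-fold, Alas2 and Fech over 22.7-fold each, and Slc4a1 over 20.0-fold. Epor and Ermap, at the other end, ranged over 1.28-fold and 1.22-fold.

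A few arrays set these ranges. CR female replicate 5 had the highest Alas2 ratio, at 2.51, and was the highest array for 15 of the 25 genes, with 24 of 25 above the pool. Control female replicate 4 followed in Alas2 at 1.38, and all 25 of its genes were above the pool. Control male replicate 2 had the lowest Alas2 ratio, at -2.00, and was the lowest array for 10 genes, with 4 genes above the pool. The high and the low arrays came from both diets. Arrays were hybridised on 6 slides, and the 4 arrays of slide 1, from 3 of the groups, were all low in Alas2 (-2.00 to -1.16), while each of the other slides held arrays above and below the pool.

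**Figure D1:**
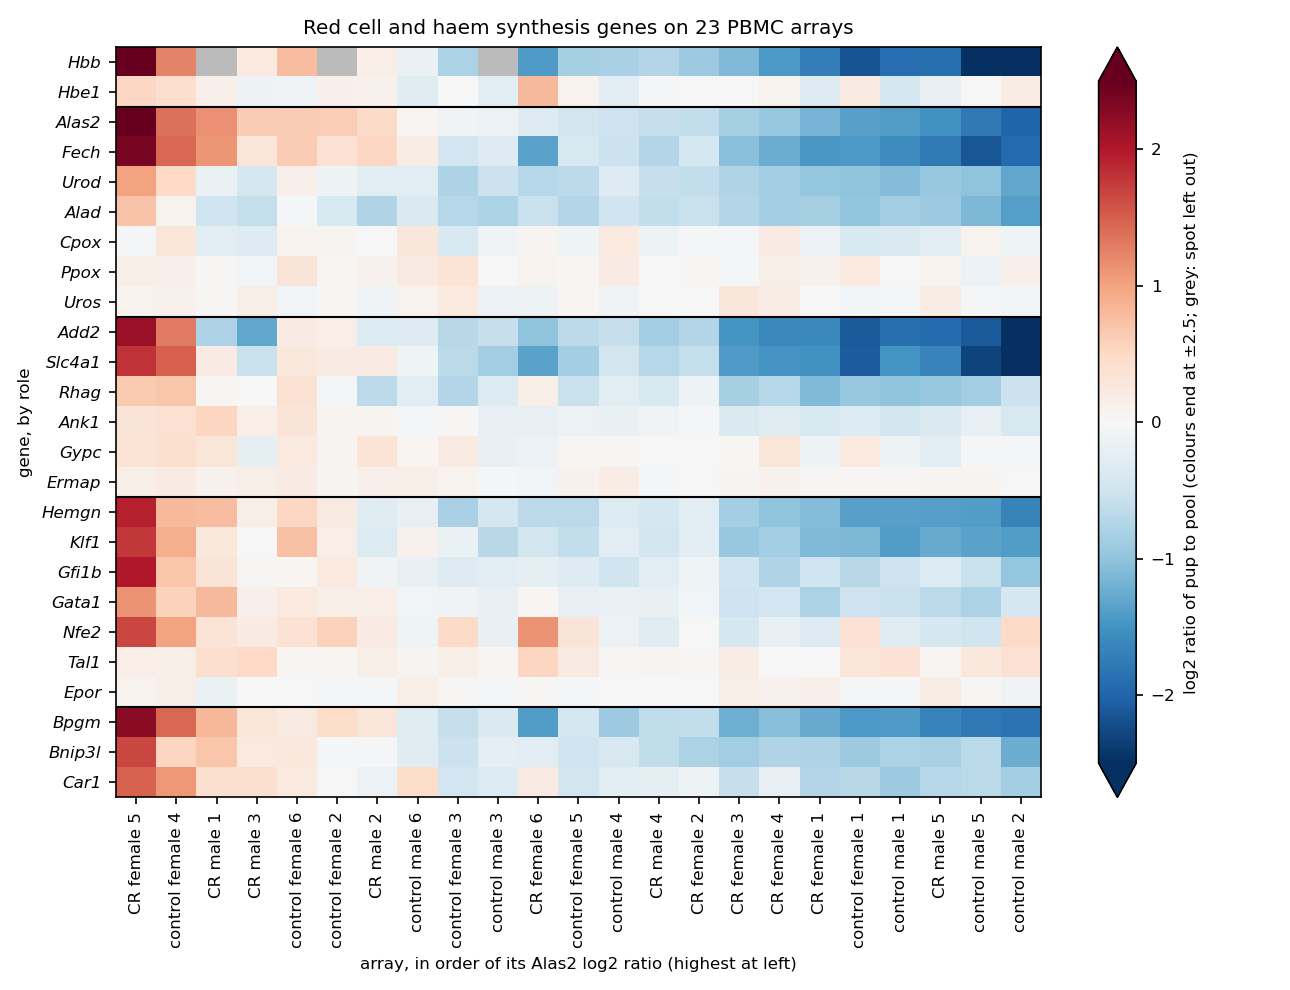
Log2 ratio of pup to pool (colour) for 25 genes (rows, grouped by role) on 23 arrays (columns, ordered by Alas2, highest at left); grey cells are spots left out. The globin, haem and membrane genes with strong colours change together from CR female replicate 5 at 2.51 in Alas2 to control male replicate 2 at -2.00, while Uros, Ppox, Tal1, Epor and Ermap stay pale throughout.

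Whether maternal calorie restriction shifted these genes was asked in each sex. In males limma called none of the 25 genes at an adjusted p under 0.05, where 0% of all features were called, and 1 of 25 had an unadjusted p under 0.05, where 7.1% of all features did. In females it called none, again against 0% of all features, and none of the 25 had an unadjusted p under 0.05, where 4.69% of all features did. Adjusted p-values of the 25 genes ran from 0.703 to 0.978 in males and from 0.991 to 0.998 in females. The ranges of CR and control pups overlapped for every one of the 25 genes in both sexes, where 0.392% of all features did not overlap in males and 0.203% in females.

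Alas2 was at 1.14, 0.49, 0.64, -0.57 and -1.52 in the 5 CR males, against -2.00 (lowest), -0.96 (median) and 0.04 (highest) in the 6 control males. It was at -1.16, -0.72 and 2.51 (lowest, median, highest) in CR females, against -1.36, 0.26 and 1.38 in control females. Of the CR males 3 were above every control male and 2 lay within the control range, and 5 of 6 CR females lay below 0 with the remaining 1 above all controls. The difference was 1.01 ± 0.61 (SE) in males (limma adjusted p 0.761) and -0.35 ± 0.58 in females (adjusted p 0.993), or -0.90 in females without CR female replicate 5. Within slides that held both groups, the male difference was 1.30, 1.00, 2.44 and -1.56 on 4 slides, and with slide as a block it was 0.50 (adjusted p 0.865).

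Hbb was at 0.16, 0.24, -0.73 and -1.88 in 4 CR males, against -1.90, -2.74, -0.81, -2.62 and -0.16 in 5 control males. Its spots on CR male replicate 1, control male replicate 3 and control female replicate 2, all on slide 2, were flagged as uneven by the scanner software and left out. In CR females it was at -1.72, -1.26 and 2.81 (lowest, median, highest, n = 6), against -2.16, -0.79, 1.24, -0.84 and 0.78 in 5 control females. The groups overlapped in both sexes, and the difference was 1.09 ± 0.84 in males (adjusted p 0.814) and -0.27 ± 0.75 in females (adjusted p 0.993). With slide as a block the male difference was 0.30 (adjusted p 0.956).

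Slc4a1, the band 3 anion exchanger of the red cell membrane, was at 0.21, 0.20, -0.55, -0.70 and -1.66 in CR males, against -2.52, -1.18 and -0.10 in control males (lowest, median, highest). In CR females these were -1.52, -1.38 and 1.81, against -2.08, -0.23 and 1.5 in control females. The differences were 0.79 ± 0.62 in males (adjusted p 0.815) and -0.48 ± 0.59 in females (adjusted p 0.991), and the male one was 0.26 with slide as a block. Gata1, the erythroid transcription factor, was at 0.81, 0.16, 0.12, -0.18 and -0.68 in CR males, against -0.78, -0.30 and -0.07 in control males. It was at -0.78, -0.27 and 1.12 in CR females, against -0.53, 0.03 and 0.58 in control females. Its difference was 0.41 ± 0.28 in males (adjusted p 0.785) and -0.14 ± 0.26 in females (adjusted p 0.993), with overlapping groups in both sexes, and 0.21 in males with slide as a block.

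**Figure D2:**
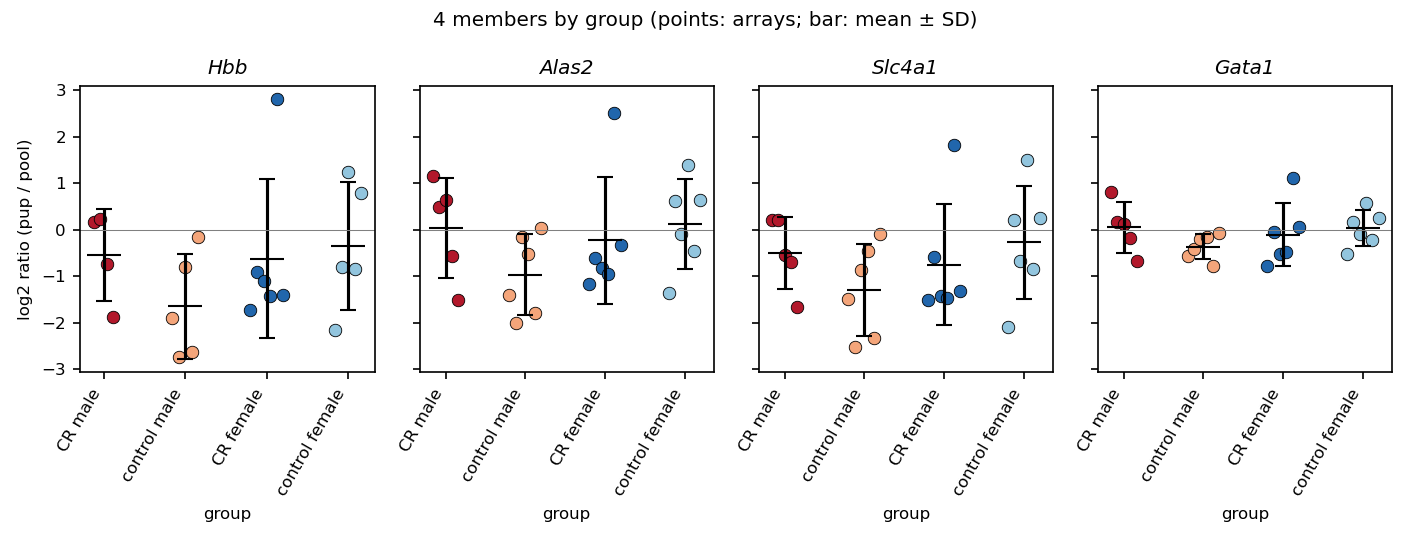
Log2 ratio of pup to pool for Hbb, Alas2, Slc4a1 and Gata1 (panels) in CR males, control males, CR females and control females; points are arrays, and bars are the mean ± SD. The CR and control points overlap in every panel, and CR female replicate 5, at 2.51 in Alas2, is the highest point in each.

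Alas2, given above, was among the genes with the 3 smallest p in males, with a difference of 1.01. The other genes with the smallest p had smaller differences. Ank1, the ankyrin that ties band 3 to the spectrin network, was at 0.55, 0.07, 0.17, -0.09 and -0.37 in CR males, against -0.46, -0.21 and -0.03 in control males (lowest, median, highest). Its difference was 0.31 ± 0.15 in males (unadjusted p 0.0489, limma adjusted p 0.703) and -0.22 ± 0.14 in females (adjusted p 0.991). Cpox, the coproporphyrinogen oxidase of haem synthesis, was at -0.27, 0.02, -0.32, -0.12 and -0.26 in CR males, against -0.36, 0.0019 and 0.28 in control males, a difference of -0.20 ± 0.12 (adjusted p 0.756). Both genes overlapped between the groups. With the scanner software's ratio, which adds no offset to the signals, the male difference of Ank1 was 0.925 (adjusted p 0.851), and under median centring that of Cpox was -0.463 (adjusted p 0.116).

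Ppox, the next oxidase of the pathway, was at -0.04, 0.10 and 0.15 in CR females (lowest, median, highest), against 0.02, 0.18 and 0.34 in control females, a difference of -0.10 ± 0.07 (limma adjusted p 0.991). Epor, the erythropoietin receptor, was at 0.01, 0.09 and 0.15 in CR females, against -0.05, -0.01 and 0.15 in control females, a difference of 0.07 ± 0.05 (adjusted p 0.991). Over the mean of the sexes the smallest p were those of Ppox (-0.07 ± 0.05, adjusted p 0.820), Uros (0.07 ± 0.05, adjusted p 0.839) and Gfi1b (0.24 ± 0.24, adjusted p 0.896). Gfi1b was at 0.31, -0.08, 0.04, -0.28 and -0.33 in CR males, against -0.96, -0.51 and -0.19 in control males (lowest, median, highest). In CR females it was at -0.75, -0.36 and 2.01, against -0.70, -0.14 and 0.68 in control females, and without CR female replicate 5 its mean difference was 0.04. Uros, the uroporphyrinogen III synthase, was at 0.04, -0.08, 0.15, -0.01 and 0.19 in CR males, against -0.14, -0.07 and 0.08 in control males, and at -0.12, 0.04 and 0.28 in CR females, against -0.07, 0.04 and 0.24 in control females. Each of these genes overlapped between CR and control pups.

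The direction over the whole group of genes was not the same in the sexes. In males 22 of 25 genes had a higher mean in CR than in control pups, with a median difference of 0.31, against -0.0072 over all features. In females 18 of 25 had a lower mean in CR pups, with a median of -0.13, against 0.0033 over all features. Because the genes vary together from array to array, these counts are a description of a few arrays and not of 25 separate changes. Without CR female replicate 5 the female median was -0.35, without control female replicate 4 it was 0.0014, and under scale normalization between arrays 0.03. With slide as a block the male median was 0.09, and under median centring 0.04. The difference between the male and the female effect had a median of 0.38 and was called for 0 of 25 genes, against 0% of all features, and 1 gene had an unadjusted p under 0.05, where 4.63% of features did. The mean of the sexes was likewise called for 0 of 25 genes, against 0% of all features, and no gene had an unadjusted p under 0.05, where 7.35% of features did.

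Between the sexes, averaged over the diets, 24 of the 25 genes were lower in males than in females. Their median difference was -0.23, against -0.0016 over all features, of which 49% were higher in males. Because the genes vary together, this count is not 24 separate changes. None of the 25 was called, against 0.0595% of all features, and Hbe1 and Nfe2 had an unadjusted p under 0.05, where 7.43% of all features did. Without CR female replicate 5 the median was -0.08, and it was -0.01 without both that array and control female replicate 4.

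Which of these genes rose together on single arrays was measured by a slope: the log2 change of a gene per 1 log2 unit of Alas2, fitted across the 23 arrays beside the means of the 4 groups, so that diet and sex drop out. limma called 16 of the 24 genes other than Alas2 at an adjusted p under 0.05, where 2.79% of all 20165 features were called, and all 16 rose with Alas2, where 2.69% of features did. None fell, where 0.0942% of features did. An unadjusted p under 0.05 was reached by 17 of the 24 genes, where 8.45% of features reached it. The 16 slopes ran from 0.22 to 1.21, with a median of 0.42 over the 24 genes. With group means removed, Pearson's r with Alas2 was 0.672 to 0.982 for the 16 and -0.058 to 0.505 for the other eight. For 15 of the 16 the two-sided permutation p was 1e-05, the smallest that 100000 permutations can give. Every array shares its dye pair, pool and hybridisation across genes, and these slopes describe arrays, not a change with diet.

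The number of called genes was 16 with slide as a block and without the 4 arrays of slide 1, and 18 when Cy5 alone was used in place of the ratio. Under scale normalization between arrays 3160 of all features were called, against 562 in the fit above. All 16 genes stayed called there, and Hbe1, Ppox, Gypc and Ermap were called as well, in a setting where calls rose over all features. Without CR female replicate 5 and control female replicate 4, the arrays farthest from the median of Alas2, 15 were called, and 293 of all features. Nfe2 was the one lost, and it was also lost without CR female replicate 5 alone.

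**Figure D3:**
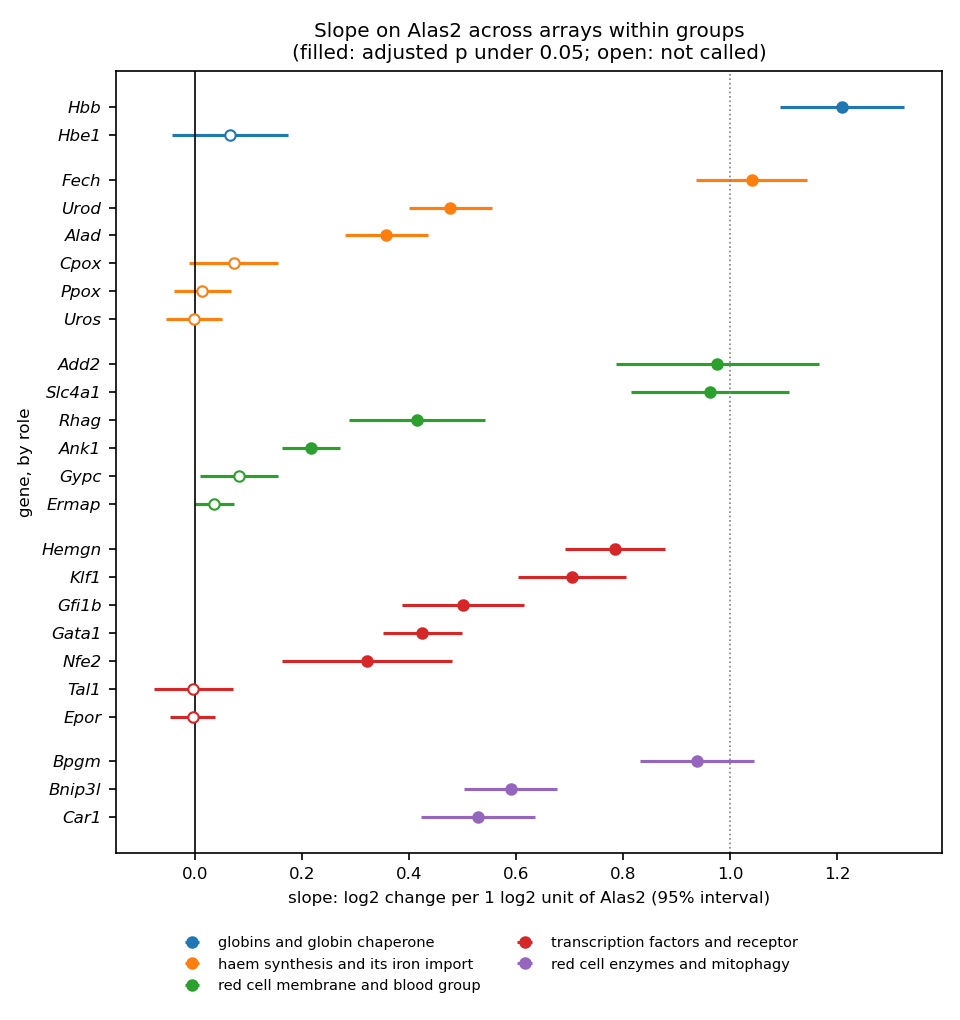
Slope on Alas2 (horizontal axis, log2 change per 1 log2 unit of Alas2) with its 95% interval for 24 genes grouped by role; filled points were called at an adjusted p under 0.05 and the dotted line marks a slope of 1. Hbb (1.21), Fech (1.04), Add2 (0.98), Slc4a1 (0.96) and Bpgm (0.94) lie near 1, and 8 open points lie near 0.

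Among the globins, Hbb had a slope of 1.21 ± 0.06 (SE, n = 20 arrays, adjusted p 8.92e-12) and an r of 0.982, or 0.959 without the 2 arrays farthest out. Hbe1, the embryonic epsilon chain, had a slope of 0.07 ± 0.05 (adjusted p 0.831), or 0.149 (adjusted p 0.000105) under scale normalization, and was highest on CR female replicate 6, at 0.82, an array where Hbb was low. The Cy5 signal of Hbb spanned 13.9-fold over the arrays, and the pool's signal on the same spots, the same RNA on each array, spanned 2.85-fold. For Alas2 these spans were 19.5-fold and 1.88-fold. With Cy5 alone the slope of Hbb was 0.91.

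In the haem pathway the called enzymes were not neighbours. Fech, the final enzyme, had a slope of 1.04 ± 0.05 (adjusted p 1.10e-12, r 0.977), so that it changed about as much as Alas2, the enzyme of the opening step. Urod, the uroporphyrinogen decarboxylase, had 0.48 ± 0.04 (adjusted p 4.09e-09), and Alad, which makes porphobilinogen, had 0.36 ± 0.04 (adjusted p 4.87e-07). Cpox (0.07 ± 0.04), Ppox (0.01 ± 0.03) and Uros (-0.0018 ± 0.025) were not called, with adjusted p of 0.703 to 0.993. Their 95% intervals ended at 0.15, 0.07 and 0.05, well under the slope of Alad. The pool was above background on all 23 arrays for Cpox, on 19 for Uros and on 10 for Ppox, and the offset added to both signals draws the ratio of a dim probe toward 0. With the scanner software's ratio the slope of Ppox was 0.23 and was not called (adjusted p 0.213), and under scale normalization Ppox was called at 0.04.

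**Figure D4:**
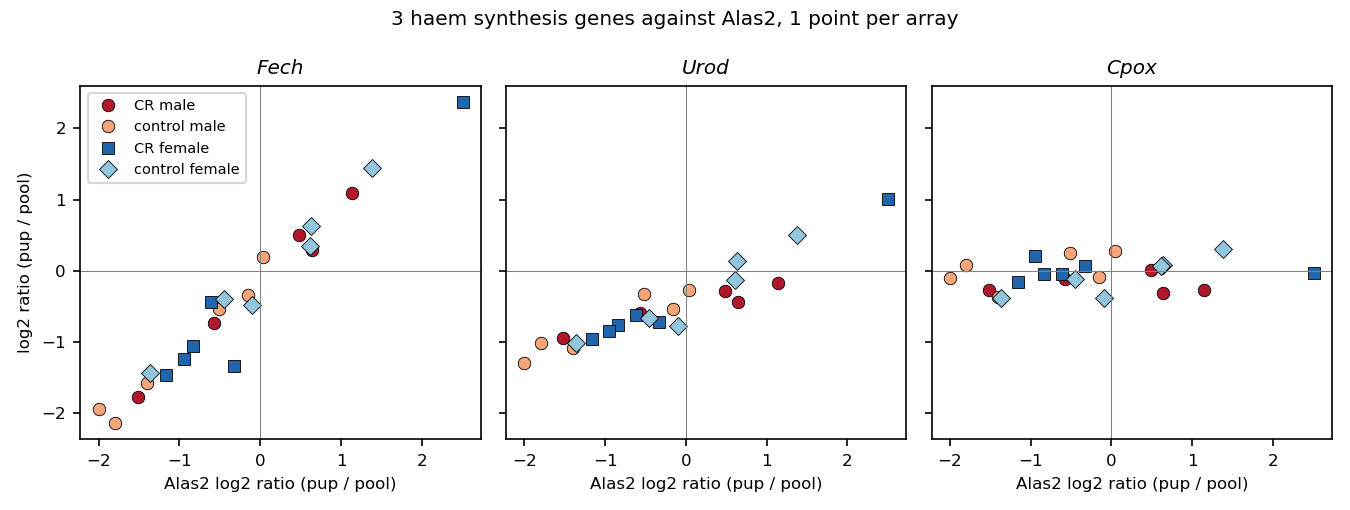
Log2 ratio of Fech, Urod and Cpox (vertical axes) against that of Alas2 (horizontal axis), 1 point per array, with colour and shape for the group. Fech follows Alas2 with a slope of 1.04, Urod with 0.48, and Cpox is flat at 0.07. Points of all 4 groups are mixed along the axis, and a slope for each group was not fitted. CR female replicate 6 lies low in Fech, at -1.33, for its Alas2 of -0.33.

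The stretches of DNA before the starts of Alas2 and of Fech, Hbb and Bpgm are shown because, among the 24 genes found by name, these 3 had the smallest p on the slope. Genes reached under older names, such as Car2 and Rhd, had smaller p and are not shown. Each is the 250 bases before the gene start that RefSeq gives on GRCr8, read 5′ to 3′ on the gene's strand, from chrX:22895200-22895449 (plus strand), chr18:60248526-60248775 (minus), chr1:167663722-167663971 (minus) and chr4:64107027-64107276 (plus). Capitals mark matches on either strand to the motif that GATA factors are known to bind, spelled AGATAA or, in its other spellings, AGATAG as well as TGATAA and also the form TGATAG. They also mark CACACCC, a box known to be bound by Klf1.
Alas2: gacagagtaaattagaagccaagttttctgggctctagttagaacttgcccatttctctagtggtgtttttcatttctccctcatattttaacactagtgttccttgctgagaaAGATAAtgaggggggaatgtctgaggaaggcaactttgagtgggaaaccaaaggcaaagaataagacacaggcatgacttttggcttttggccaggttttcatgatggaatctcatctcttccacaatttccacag
Fech: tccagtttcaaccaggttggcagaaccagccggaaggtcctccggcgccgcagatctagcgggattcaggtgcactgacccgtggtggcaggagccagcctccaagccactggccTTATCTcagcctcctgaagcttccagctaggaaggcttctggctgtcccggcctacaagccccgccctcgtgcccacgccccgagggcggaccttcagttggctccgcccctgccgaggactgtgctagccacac
Hbb: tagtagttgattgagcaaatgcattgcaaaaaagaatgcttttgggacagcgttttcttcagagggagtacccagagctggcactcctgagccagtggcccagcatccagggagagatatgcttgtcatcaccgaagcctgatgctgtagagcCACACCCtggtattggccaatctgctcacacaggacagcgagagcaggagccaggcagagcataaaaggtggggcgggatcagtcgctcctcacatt
Bpgm: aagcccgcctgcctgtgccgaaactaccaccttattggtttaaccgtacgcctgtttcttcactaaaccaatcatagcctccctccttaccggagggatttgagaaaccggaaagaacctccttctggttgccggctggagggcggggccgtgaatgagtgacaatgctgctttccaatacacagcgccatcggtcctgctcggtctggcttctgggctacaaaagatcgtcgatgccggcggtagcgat
Alas2 held 1 GATA match, which ends 131 bases before the start, and Fech held 1 on the opposite strand, ending at 130 bases. Hbb held 1 CACACCC, ending 91 bases before the start, and Bpgm held neither. Matches to the 2 kinds of motif did not overlap. A GATA match was present in 27% of all 33469 windows of that length and a CACACCC in 6.12%. Of the 12 windows available for Alas2 and the called genes 6 held a GATA match and 4 a CACACCC, and of the 7 windows of genes not called 4 held a GATA match and 1 a CACACCC. A match is a string of letters, and binding was not measured. Which start these cells use was not measured either.

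Among membrane genes, Add2, the beta subunit of adducin, which caps actin in the membrane skeleton, had a slope of 0.98 ± 0.09 (adjusted p 8.47e-08). Slc4a1 had 0.96 ± 0.07 (adjusted p 1.48e-09), Rhag, the Rh-associated glycoprotein, 0.42 ± 0.06 (adjusted p 7.01e-05), and Ank1 0.22 ± 0.03 (adjusted p 4.15e-06). Gypc, glycophorin C (0.08 ± 0.04, adjusted p 0.451), and Ermap, an erythroblast membrane protein (0.04 ± 0.02, adjusted p 0.592), were not called, and the pool was above background for Ermap on 0 of 23 arrays. Both depended on the setting. Ermap was called in 5 of 14 settings, at 0.523 with the scanner software's ratio (adjusted p 0.019), 0.168 with Cy5 alone, 0.135 with no background correction, 0.0951 under median centring and 0.0478 under scale normalization. Gypc was called in 3 of 16 settings, at 0.166 with Cy5 alone, 0.144 with no background correction and 0.106 under scale normalization. The second probes of Slc4a1 and Add2 gave smaller slopes, 0.48 ± 0.05 and 0.68 ± 0.05, in the same direction. With the scanner software's ratio the slope was 0.95 for Ank1 and 0.78 for Rhag, both more than 1.5 times larger.

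Of the transcription factors and the receptor, 5 of 7 were called. Hemgn, hemogen, a nuclear protein of erythroid cells, had a slope of 0.78 ± 0.04 (adjusted p 2.24e-11), and Klf1, which activates the adult beta-globin gene, had 0.70 ± 0.05 (adjusted p 4.90e-10). Gfi1b, a repressor needed for red cell and platelet precursors, had 0.50 ± 0.05 (adjusted p 8.54e-07), and 0.30 without CR female replicate 5 and control female replicate 4. Gata1 had 0.42 ± 0.04 (adjusted p 1.29e-08), and 0.97 with the scanner software's ratio. Nfe2 had 0.32 ± 0.08 (adjusted p 0.0165), 0.20 (adjusted p 0.447) without CR female replicate 5 and 0.17 (adjusted p 0.628) without both arrays, where its r was 0.364. Tal1 and Epor had slopes of -0.0030 ± 0.036 and -0.0045 ± 0.020 (adjusted p 0.992 and 0.975). A second probe of Tal1, above background on 16 arrays, had a slope of 0.06 ± 0.02.

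Of the enzymes and the mitophagy receptor, all 3 were called. Bpgm, the bisphosphoglycerate mutase that tunes the oxygen affinity of haemoglobin, had a slope of 0.94 ± 0.05 (adjusted p 1.07e-11). Bnip3l, which clears mitochondria from maturing reticulocytes, had 0.59 ± 0.04 (adjusted p 7.84e-10), and Car1, a carbonic anhydrase, 0.53 ± 0.05 (adjusted p 1.29e-07).

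**Figure D5:**
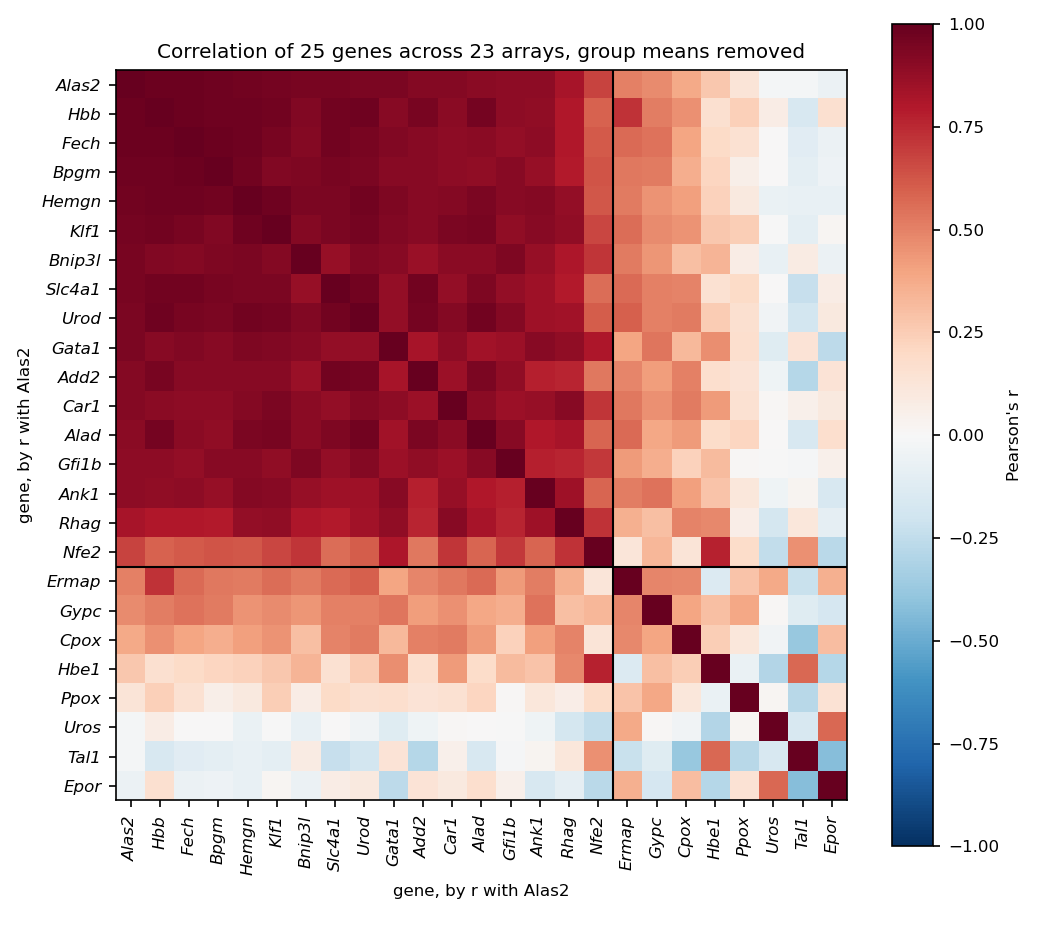
Pearson's r (colour) between each pair of 25 genes across the arrays with group means removed, ordered by r with Alas2; the lines part Alas2 and the 16 called genes from the other eight. The block at upper left holds Alas2 and the genes with r of 0.672 to 0.982 with it.

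Pairs without Alas2 moved together as well. Hbb and Fech had an r of 0.983, Hbb and Slc4a1 0.968, and Alad, Urod and Fech had r of 0.885 to 0.984 with Bpgm, Bnip3l and Car1. Uros, Cpox and Ppox had r of -0.07 to 0.518 with the same genes. Nfe2 was nearest to Gata1 (r 0.805), followed by Hbe1 (r 0.768), and had an r of 0.590 with Hbb. These are descriptions over at most 23 arrays that share their dyes and pool.

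Most of the 12 genes reached under older names rose with Alas2 too. They were read from 11 probes, and 11 of the 12 genes were called on the slope, against 2.79% of all features. Car2, a second carbonic anhydrase, had 1.07 ± 0.04 (adjusted p 5.14e-15), Rhd, the Rh blood group protein, 1.00 ± 0.04, Ahsp, the chaperone of alpha-globin, 1.08 ± 0.07, and Epb42, a protein that binds band 3, 0.87 ± 0.05. Kel (0.62 ± 0.05), Sptb, the beta chain of spectrin (0.59 ± 0.04), Epb41 (0.33 ± 0.05) and Slc25a37, the mitochondrial iron importer (0.27 ± 0.03), were called too. Xk, which pairs with Kel in the membrane, was not (-0.01 ± 0.02, adjusted p 0.941). With the scanner software's ratio Slc25a37 was at 0.73 and Sptb at 1.05, and Kel was at 0.39 with the mean of its probes.

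The alpha-globin probe matches Hba-a1, Hba-a2 and Hba-a3 and cannot tell them apart, and it accounts for 2 of the 11 called genes. Its Cy5 signal was saturated in 3 CR males, 0 control males, 1 CR female and 3 control females, so the ratios of those arrays are lower bounds and no difference between the diets is given. The measured ratio was at 1.66, 1.06, 1.35, 0.22 and -0.68 in CR males, against -0.89, -1.73, 0.31, -1.58 and 0.79 in 5 control males. In CR females it was at -0.47, -0.26 and 3.35 (lowest, median, highest, n = 6), against -1.05, 0.40, 1.69, 0.27 and 1.88 in 5 control females. The measured values of CR and control pups overlapped. Its slope on Alas2, 1.06 ± 0.05, rests on the same ratios. The Cy5 signal spanned 2.25-fold, while the pool's signal on the same spots spanned 10.2-fold, and with Cy5 alone its slope was 0.21. A second beta-globin probe, filed for Hbb-b1 and also matching Hbb, had a slope of 1.26 ± 0.05 over 18 arrays and of 0.71 with Cy5 alone, where its pool signal spanned 5.84-fold. The part of the pool channel in these globin ratios was not tested.

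Some genes of the same pathways outside the list rose as well. Of 15 other haem pathway and transport genes in the test, 5 were called higher and 0 lower, with a median slope of 0.07. Among these were Glrx5, a glutaredoxin of iron-sulphur cluster assembly (0.78 ± 0.05), Slc25a39, a mitochondrial carrier (0.63 ± 0.04), Eif2ak1, the haem-regulated kinase (0.38 ± 0.03), and Abcb10 (0.17 ± 0.03). Of 14 other red cell membrane genes 5 were called higher, with a median of 0.04, among them Aqp1, the water channel (0.70 ± 0.11), Tmod1 (0.68 ± 0.04), Adipor1 (0.58 ± 0.05) and Cd59 (0.32 ± 0.06). Over all features 2.69% were called higher and 0.0942% lower, and the median slope was -0.0037.

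Of 24 other erythroid regulators and enzymes, 16 were called higher and 0 lower, against 2.69% and 0.0942% of all features, with a median of 0.31. Ncoa4, which delivers ferritin for breakdown (0.71 ± 0.05), Prdx2, an abundant peroxidase of red cells (0.68 ± 0.05), Ubac1 (0.64 ± 0.05) and Ube2o, a ubiquitin ligase of reticulocytes (0.62 ± 0.06), were among them. Tent5c, Rnf10, Bcl2l1, Cat, Gpx1, Tspan33, Xpo7, Isg20, Nprl3, Trim58 and Fbxo7 were called as well, at 0.13 to 0.58. Without the 2 arrays farthest out in Alas2, Abcb10, Aqp1, Cd59, Xpo7, Fbxo7 and Nprl3 were no longer called. Without CR female replicate 5 alone, Nprl3 was at 0.155 (adjusted p 0.12) and Fbxo7 at 0.0728 (adjusted p 0.505). Xpo7, at 0.238 (adjusted p 0.112), and Cd59, at 0.276 (adjusted p 0.0758), were not called without that array either. Fbxo7 was also not called without control female replicate 4 (adjusted p 0.0517), with slide as a block, under median centring, with the scanner software's ratio or with Cy5 alone.

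None of the marker genes of B cells (7 in the test), T cells (10), natural killer cells (8), monocytes (9), neutrophils (6) or platelets (8), and none of 14 cell cycle genes, was called on the slope in either direction. Over all features 2.79% were called, so lists this short would hold few calls at that share. The mean of each of these lists had an r with Alas2 between -0.30 (T cells) and 0.32 (cell cycle). Without the 2 arrays farthest out in Alas2 it was 0.532 for the cell cycle list, 0.463 for B cells, against 0.199 with them, and -0.373 for T cells. The mean of the neutrophil list lay at -0.17 to 0.31 in CR males, -0.54 to 0.30 in control males, -0.42 to 1.11 in CR females and -0.34 to 0.48 in control females.

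The genes outside the list with the smallest p on the slope in each direction were ranked over all 20165 features. The closest was Rsad2 (1.14 ± 0.03, adjusted p 1.11e-15, r 0.991), followed by Ybx3 (1.04 ± 0.03), Hagh (0.77 ± 0.03), Nrtn (1.05 ± 0.04), Alox15 (1.21 ± 0.05), Mkrn1 (0.85 ± 0.04), Cd52 (0.90 ± 0.04), Lgals5 (0.99 ± 0.05), the globin gene Hbq1 (0.84 ± 0.04) and Exosc2 (0.87 ± 0.04). All 10 were highest on CR female replicate 5, and their r without the 2 arrays farthest out was 0.951 to 0.984. In the other direction the slopes were small. Rps23 (-0.15 ± 0.03, adjusted p 0.00105), Rpl30 (-0.10 ± 0.02), Tmsb10, Rps24, Pstpip1, Rps6kc1, Rps3a, Eef1b2, Rpl19 and Rps6 came first, at -0.15 to -0.07. Of 71 ribosomal protein genes tested 6 were called lower and 1 higher, against 0.0942% and 2.69% of all features. Under median centring in place of loess none of these 10 genes was called, and their slopes were -0.13 to -0.04. Their calls were also lost for 9 of 10 with the scanner software's ratio and without the 2 arrays farthest out, for 8 without CR female replicate 5 or without control female replicate 1, and for 7 with slide as a block. Of the 6 ribosomal protein genes among the 10, 3 lost their call with slide as a block and 5 without the 2 arrays.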

How the data were processed

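RNA of 23 pups was hybridised against a pool on Agilent rat arrays of design 014879, and the submitters' processing notes name Feature Extraction 10.5.1.1 for the scans. The deposited scanner files give an unnormalized intensity per spot and channel, per the file headers. Per the file headers they also hold a deposited log10 ratio, Cy5 over Cy3, normalized by the scanner software, and other columns with its spot flags. A value table deposited with them has log2 levels of 22920 spots with equal column medians of 7.23; how the authors made it is not given in the sources used here, its columns follow log2 Cy5 of the same array (r of 0.989 to 0.997), and it served as an alternative only.

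Intensities were corrected with limma 3.58.1 (R 4.3.3) by normexp with an offset of 50 and normalized by loess within arrays, with control spots given no weight. Spots flagged as outliers (127 to 427 per array) were left out. Probes whose Cy5 was well above background on 50% or more of the arrays in any 1 group were kept, and the brightest probe stood for each gene name, giving 20166 features from 23693 kept of 41012 probes. Dim ratios are drawn toward 0 by the offset.

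limma models with moderated variance (prior degrees of freedom 3.40) were fitted to the 4 group means, with Benjamini-Hochberg adjustment over all features and calls at an adjusted p under 0.05. The contrasts were CR minus control in males, in females, over both, the difference of the male and the female effect, and males minus females. The slope model added the Alas2 log2 ratio as a covariate, so its own values choose the yardstick and it has no slope. Correlations used values with group means removed and 100000 permutations. Scripts were tested on simulated data.

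Alternatives were median centring, scale normalization, the scanner's ratio, Cy5 alone, the deposited table, no background correction, an offset of 16, outlier spots kept, no filter, a stricter filter, the mean of probes, slide block, replicate block, array weights, leaving out each array and leaving out the 2 arrays farthest from the median of Alas2. Leaving out the 4 arrays of slide 1 was chosen after seeing the data.

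The genes, the wider lists and the tests were chosen with earlier results of these data known. A few genes of the wider lists are not reported here. Named were the other list genes, those with the 3 smallest p per diet contrast, and the 10 other genes with a symbol and the smallest p on the slope in each direction. Same-numbered pups were not paired: the correlation of their deviations was 0.02 to 0.20 in males and -0.24 to 0.33 in females. Gene names and promoter windows came from RefSeq (GRCr8).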

Additional observations from a re-analysis of the deposited data

Results flagged for a closer look

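In 14 of 100 sets of values (25 genes in 4 groups) 1 array stood far from the rest of its group, and chance alone flags about 1 in 20 such sets. In 12 of the 14 that array was CR female replicate 5, so these are mostly 1 array seen through 12 genes that vary together. On it Hbb was at 2.81, Alas2 at 2.51, Fech at 2.37, Bpgm at 2.25, Add2 at 2.16, Gfi1b at 2.01, Hemgn at 1.94, Slc4a1 at 1.81, Klf1 at 1.78, Bnip3l at 1.67, Urod at 1.01 and Alad at 0.72, each above the other CR females by at least 70.4% of the range of the group. That array had 20890 probes above background, within the range of the other arrays, and a median log2 ratio over all features of 0.0003. The other two sets were Tal1 on CR female replicate 6, at 0.54, and Nfe2 on control female replicate 4, at 1.00.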

How the results depend on the processing

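None of the 25 genes was called between the diets or between the sexes under any of the 39 alternatives. On the slope, 622 of 624 alternative values of the 16 called genes kept direction and call; the other two were values of Nfe2, 0.173 without the 2 arrays farthest out in Alas2 and 0.204 without CR female replicate 5, which were not called (adjusted p 0.628 and 0.447).

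Features called between the diets differed from 0 in few settings: 1 in males with the replicate block, 2 for the mean of the sexes with array weights, and, leaving out 1 array at a time, 0 to 4 in males (4 without CR male replicate 2) and 0 to 3 for the mean of the sexes. Features called on the slope, 562 here, were 3160 under scale normalization, 293 without the 2 arrays farthest out in Alas2 and 333 to 582 leaving out 1 array. The median slope of the 24 genes, 0.42 here, was 0.483 under median centring, 0.579 with the scanner's ratio, 0.492 with Cy5 alone, 0.549 with the deposited table, 0.512 with no background correction, 0.498 with the smaller offset and 0.348 without the 2 far arrays, and 0.375 to 0.444 leaving out 1 array. With numbers as a replicate block, 16 genes were called on the slope, and the male Alas2 difference was 1.1 (adjusted p 0.748).

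Slopes near 0 changed sign. Uros was at 0.0201 under scale normalization, 0.13 with the scanner's ratio, 0.0215 with Cy5 alone, 0.0547 with the deposited table, 0.043 with no background correction and 0.00406 with array weights. Tal1 was in the same order at 0.0348, 0.103, 0.0371, 0.0554 and 0.061, and at 0.0286 with the mean of probes, 0.0302 with slide block, 0.0012 with the replicate block and 0.0271 without slide 1. Epor was at 0.000336 under median centring, 0.016 under scale normalization, 0.0916 with the scanner's ratio, 0.045 with Cy5 alone, 0.0268 with the deposited table, 0.0355 with no background correction and 0.00485 with array weights. Xk was at 0.00232 under scale normalization and 0.0098 with the mean of probes, Hbe1 at -0.00549 without the far arrays, and Rps24 at 0.001 with Cy5 alone. Leaving out 1 array at a time, Uros ran from -0.0123 to 0.0116, Tal1 from -0.0219 to 0.0106, Epor from -0.0149 to 0.0139, and the female difference of Hbb from -0.96 to 0.125. The female difference was 0.196 for Hbb and 0.174 for Gata1 under scale normalization. The cause of these changes was not tested.

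Probes near background have ratios drawn toward 0 by the offset, which bears on Ermap, Ppox, Epor, Uros, Tal1 and Ank1. The globin ratios rest on spots whose pool signal also moved. With 5 or 6 arrays a group, the standard error of the Alas2 difference was 0.61 in males and 0.58 in females. The 11 CR pups came from 5 dams, so pups of the same dam are among the arrays.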
